A study of Mus musculus with 2 samples.

Results

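The regions described here are CG cytosines that were called as candidate 5-formylcytosine (5fC) in mouse embryonic stem cells and that lie in no protein-coding gene. They were taken from the sites listed in each of 2 libraries, as CG sites whose position falls between the start and end of no protein-coding RefSeq gene of GRCm38/mm10. Site-dense stretches on chromosomes 2, 9, 14 and 17 were left out. This gave 788 sites of 28569 listed cytosines in replicate 1 and 823 of 29650 in replicate 2, 1295 different sites in all. They made up 37.2% (35.2 to 39.3, 95% Wilson interval here and below) of the CG sites of replicate 1 and 36.7% (34.8 to 38.8) of replicate 2. Of listed non-CG sites, 47.2% lay outside genes in each. Both libraries came from genomic DNA of embryonic stem cells of 1 group, with no treatment, genotype, strain or control library among the labels. In CLED-seq, 5fC is tagged with biotin and captured, and a cytosine deaminase then converts the other cytosines, so that bases which stay C in the reads are the candidates. No label says that the libraries came from separate cultures, so differences between them may be technical. Most sites listed in both had identical read counts, some counts were exactly doubled, and others recurred almost unchanged at a shifted position. Whether the libraries share reads was not tested, so agreement between them is not given as independent replication. No gene expression was measured, so the labelled cell type could not be checked against markers.

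5fC is made when TET enzymes oxidise 5-methylcytosine through 5-hydroxymethylcytosine, and the glycosylase TDG can cut it out so that repair restores plain cytosine. In embryonic stem cells it is known from CG sites and has been linked to promoters and distal regulatory elements, many of which lie between genes. Long noncoding RNA (lncRNA) genes also lie there, and some act on a neighbouring gene or are read from shared promoters. A site's level is the percentage of its reads with the C retained. Since fragments were captured first, it is no measure of the share of cells or alleles with 5fC, and a cytosine that the enzyme missed would look the same.

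Some of the sites near a gene start are shown here by sequence, and they do not stand for all called sites. The following 10 stretches, all from sites listed in both replicates just before the annotated start of a gene, were picked after their values were seen, 5 with a high and 5 with a lower level. Each is given 5′ to 3′ on the called strand with the called C and its G in capitals, from RefSeq promoter sequences of GRCm38.p6, and is cut short where a protein-coding gene is reached. The stretches at Vps35 and Fbxo45 come from the promoter windows of their neighbours Orc6 and Wdr53.
Gdpd4: gcgtggccactcgtCGtgggggcgtggcca
Tmem9b: tctcgcagctgaccCGgcgcggacggtgac
Vps35: gagagggcggggctCGcaaggctcggtc
Mir22hg: gacgcctgaatgggCGggagtaagcagagg
Cdt1: atccaaagctgccgCGggggtggtggcccg
Glo1: ggggCGggcggacgcggctc
Fbxo45: gcgcccgcgctgagCGgctccgaggg
Rrm2: gccccctcggagcgCGcggttgggtggctc
Ezh1: ctcccctccgtgcgCGtgcgcactctgagg
Rps16: ttcccctccgacacCGccccctcccttgcc
The stretches lie at chr7:97919902-97919931 (Gdpd4, minus strand), chr7:109752274-109752303 (Tmem9b, minus), chr8:85299518-85299545 (Vps35, minus), chr11:75461506-75461535 (Mir22hg, plus) and chr8:122567868-122567897 (Cdt1, plus). Those with lower levels lie at chr17:30612660-30612679 (Glo1, plus), chr16:32247026-32247051 (Fbxo45, minus), chr12:24708224-24708253 (Rrm2, plus), chr11:101226479-101226508 (Ezh1, plus) and chr7:28350584-28350613 (Rps16, plus).

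At Gdpd4, a gene of the glycerophosphodiester phosphodiesterase family, the site 27 bp before the gene kept the C in 35 of 35 reads in both replicates, with a lower bound of 90.1%. At Tmem9b it was kept in 38 of 42 reads in both. The site 14 bp from Vps35, which encodes a subunit of the retromer sorting complex, stood at 39 of 46 reads in both. Mir22hg is the lncRNA host gene of the microRNA miR-22. Its site, 19 bases before the start and 6504 bp from the nearest protein-coding gene Tlcd2, had 40 of 45 reads and 41 of 46 reads. At Cdt1, a gene of DNA replication licensing, 27 of 30 reads kept the C in both. The low end held the detoxifying enzyme gene Glo1, with 7 of 31 reads in both at 5 bp from the gene. Near Fbxo45, which encodes an F-box protein, the counts were 9 of 41 and 9 of 40. The site 16 bp before Rrm2, which encodes the small subunit of ribonucleotide reductase, had 12 of 40 reads in both. At Ezh1, a polycomb histone methyltransferase gene, it was 15 of 38 in both. That level, 39.5%, was below the median of all sites outside genes but above their lower quartile. At the ribosomal protein gene Rps16 the counts were 9 of 42 and 9 of 43. The intervals of Gdpd4 (from 90.1%) and Glo1 (11.4% to 39.8%) did not overlap. These sites were picked for a high or a lower level, so the choice fixed that outcome. Sites at gene starts did include both nearly fully kept and mostly converted cytosines.

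Levels were spread over the whole callable range rather than around a single value. The median was 46.2% in replicate 1 (quartiles 31.3 and 75; lowest 16.7) and 48.4% in replicate 2 (quartiles 32.1 and 76.4; lowest 17.5). A level of at least 80% was found at 177 sites (22.5%, interval 19.7 to 25.5) and 185 sites (22.5%, 19.8 to 25.5), and a level under 30% at 176 and 170. No read was converted at 30 and 36 sites. Low levels cannot occur, since only sites that passed the authors' test are listed. The median depth was 34 reads in both (quartiles 31 and 38; highest 115 and 72), so a single level is known only roughly. CG sites inside protein-coding genes had medians of 48.7% and 48.5%. The median outside minus the median inside was -2.56 and -0.0978 points. The libraries differed by more than the average of these values, and no test was run.

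**Figure D1:**
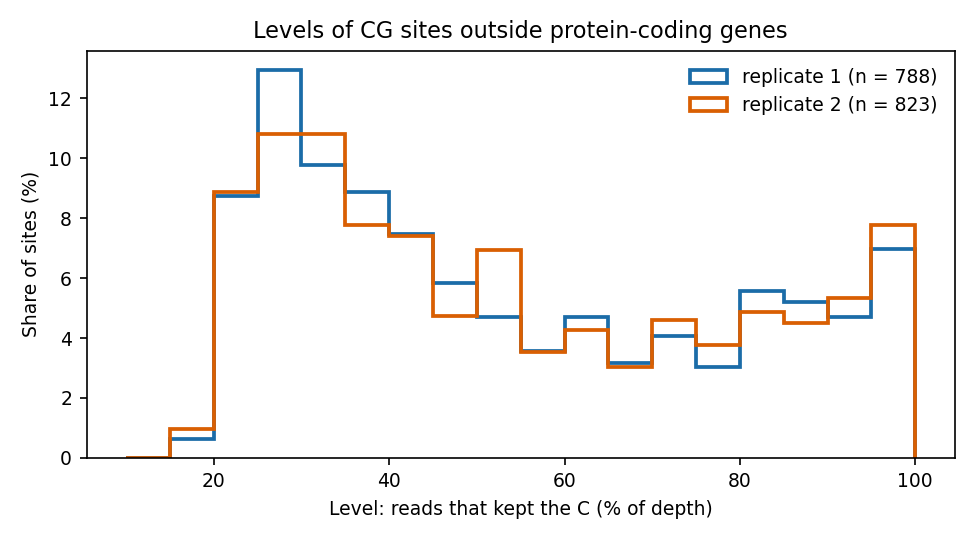
Share of CG sites outside protein-coding genes (vertical axis, %) by level, the percentage of reads that kept the C (horizontal axis, in steps of 5 points), for replicate 1 (788 sites) and replicate 2 (823 sites). Both lines have their main peak between 20% and 40% and rise again towards 100%.

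The strongest sites were spread over the genome. Of the 316 sites listed in both replicates, 14 had a level of 100% in both replicates, and 74 had at least 80% in both. For shared CG sites inside genes these counts were 31 and 160 of 589. For shared non-CG sites outside genes they were 210 and 1230 of 4819, so such levels were not particular to the sites described here. Listing in both replicates was as frequent here (40.1% of replicate 1 and 38.4% of replicate 2) as over all listed cytosines (40.4% and 38.9%), which is the background for the 316. The fully kept shared site with the most reads, 43 of 43 in both, lay on the X chromosome (21853035), 110677 bp from Slc6a14. Next came 42 of 42 in both on chromosome 10 (70640101), 40810 bp from Phyhipl. On chromosome 5 (25499097), 242 bp upstream of Kmt2c, it was 40 of 40 in both. On chromosome 13 at position 31811821, 1186 bp downstream of Foxc1, a forkhead transcription factor gene of eye and skeletal development, 39 of 39 and 38 of 38 reads kept the C. A second shared site, 7992 bp upstream of Foxc1 at position 31798654, was at the other end of the range with 8 of 35 and 8 of 36 reads. On chromosome 5 at position 104887627, in the pseudogene Gm29716 and 27470 bp from Zfp951, all 37 reads kept the C in both replicates. All 35 did at position 17407270 on chromosome 11, 138094 bp from C1d, a nuclear exosome cofactor gene. Near Fbrs (chromosome 7, position 127478368, 47 bp upstream) 34 of 34 reads kept it in both. The site 16768 bp from Tlr2, the gene of a receptor for bacterial lipoproteins, had 33 of 33 (chromosome 3, 83858592). At 6687 bp from Rpp21, which encodes a subunit of ribonuclease P, it was 32 of 32 (chromosome 17, 36248986). Each lower bound was at least 89.3% at these fully kept sites.

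Sites gathered close to protein-coding genes, and most of the close ones with a known side lay on the side of the start. Within 2000 bp of a gene lay 144 sites of replicate 1 (18.3%, 15.7 to 21.1) and 149 of replicate 2 (18.1%, 15.6 to 20.9). Non-CG sites outside genes were there in 8.35% (7.88 to 8.86) and 8.43% (7.95 to 8.92), and 4.08% of the bases between protein-coding genes lie that close. Median depth near genes was 37 and 36 reads, against 33 to 35 in every farther range. Neither the number of covered CpGs nor the coverage by distance is known, and their part in this difference was not tested. The median distance was 27743 bp (quartiles 5867 and 97669) and 29030 bp (5832 and 96204), against 36779 and 38557 bp for non-CG sites. Beyond 500000 bp from a gene lay 30 and 32 sites (3.81% and 3.89%), where 14.1% of the bases lie.

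**Figure D2:**
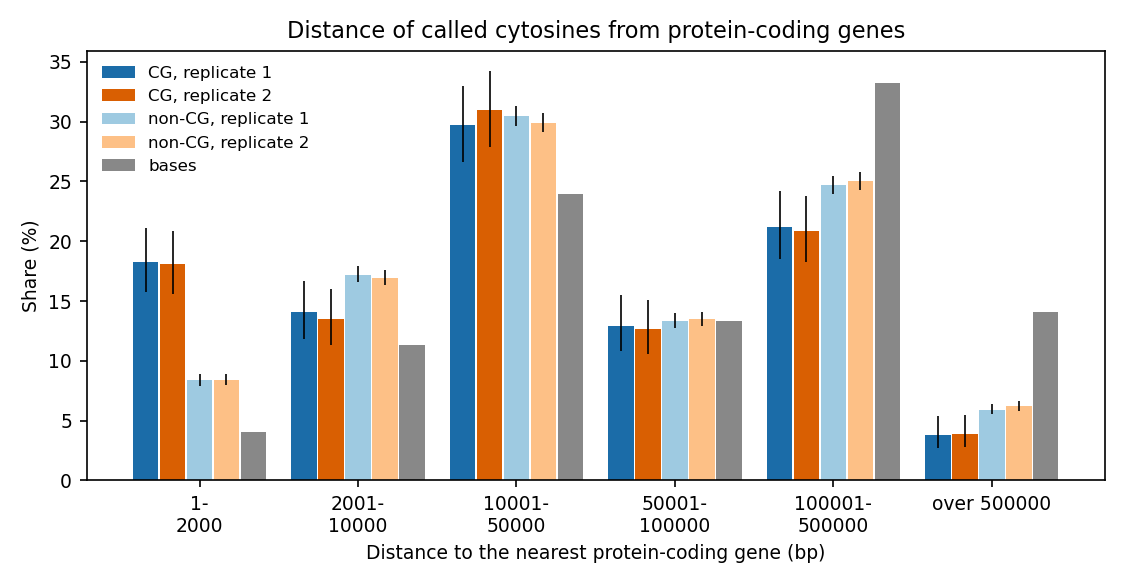
Share of called cytosines (vertical axis, %) by distance to the nearest protein-coding gene (horizontal axis, bp) for CG and non-CG sites outside such genes in each replicate, with 95% Wilson intervals, beside the share of bases between genes. In the nearest range the CG bars stand at 18.3% and 18.1%, above the non-CG bars at 8.35% and 8.43% and the bases at 4.08%.

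The side could be told where the promoter table gave the nearest gene a strand. Within 250 bp it was unknown for 19 of 71 sites in replicate 1 and 23 of 80 in replicate 2. Within 2000 bp it was unknown for 39 of 144 and 41 of 149. Within 250 bp of a gene, 47 of 52 sites with a known side lay upstream of the gene in replicate 1 (90.4%, 79.4 to 95.8) and 53 of 57 in replicate 2 (93.0%, 83.3 to 97.2). For non-CG sites these shares were 76.9% (70.5 to 82.3) and 74.5% (67.8 to 80.2). The intervals of CG and non-CG sites overlapped in replicate 1 and not in replicate 2, and the difference was not tested. Beyond 2000 and up to 10000 bp the upstream share was 55.3% (44.7 to 65.4) and 46.1% (35.3 to 57.2), and both intervals include an even split. Beyond 10000 and up to 100000 bp it was 51% (44.9 to 57.1) and 58.5% (52.5 to 64.2), where the interval of replicate 2 lies above an even split. Non-CG sites stood at 54.0% (52.4 to 55.5) and 54.0% (52.5 to 55.5) in that range. Within 250 bp the sites upstream had median levels of 63.0% (47 sites) and 56.3% (53 sites). Those downstream had 44.1% (5 sites) and 82.5% (4 sites). Within 2000 bp the upstream medians were 55.3% and 55.2%, and the downstream medians 57.6% (21 sites) and 77.2% (18 sites). The difference in level between the sides was not tested.

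**Figure D3:**
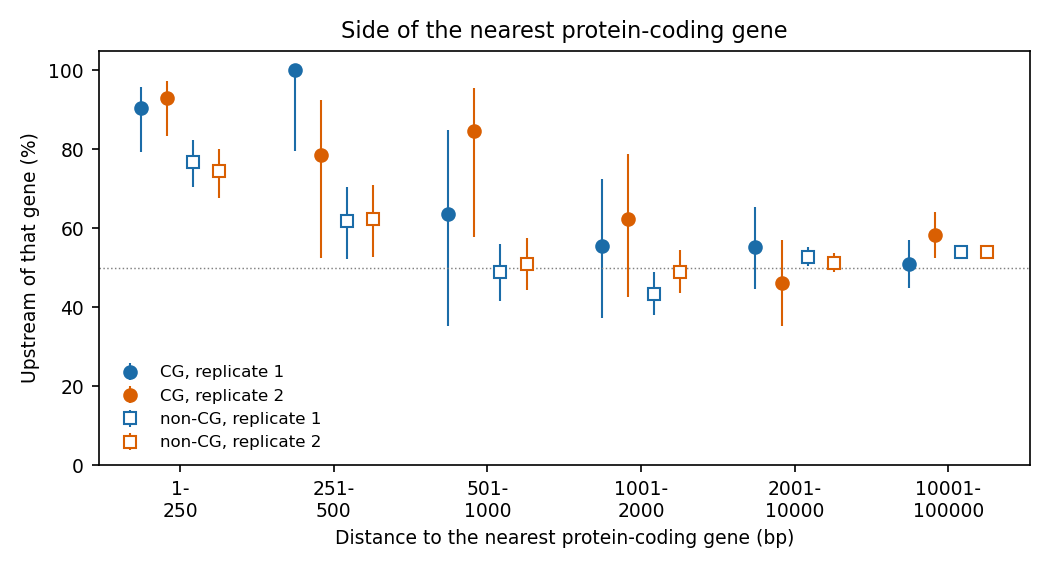
Percentage of sites that lie upstream of their nearest protein-coding gene (vertical axis) by distance from it (horizontal axis, bp), for CG (filled) and non-CG sites (open) of each replicate, with 95% Wilson intervals. CG sites within 250 bp stand at 90.4% and 93.0%, and beyond 2000 bp all points lie between 46.1% and 58.5%.

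The gene starts with a called site were rich in CpG. In the 250 bases before an annotated start of a protein-coding or lncRNA gene lay 49 sites in replicate 1 and 52 in replicate 2, of which 28 were listed in both. Over all listed cytosines, 40.4% of replicate 1 and 38.9% of replicate 2 were listed in both, and the difference was not tested. The sites before gene starts belonged to 47 and 51 protein-coding genes, with 6 and 4 sites before lncRNA starts. The promoter windows of those protein-coding genes (250 bases before to 50 after the start) held a median of 28 CpGs in both replicates, against 13 over all 21263 windows of protein-coding genes (quartiles 4 and 24). A window with more CpGs offers more positions to be called, and no correction for this was made. The base before the called C was C at 20, G at 16, A at 8 and T at 5 of the 49 sites, and C at 16, G at 26, A at 5 and T at 5 of the 52. The background is all CpG cytosines of the windows with such a site, lncRNA windows included. T came before 11.6% and 10.7% of these, against 10.2% (4.44 to 21.8) and 9.62% (4.18 to 20.6) of the called ones. For C it was 33.6% and 35.1%, against 40.8% (28.2 to 54.8) and 30.8% (19.9 to 44.3). For G it was 43.4% and 43.2%, against 32.7% (21.2 to 46.6) and 50% (36.9 to 63.1). For C and G the replicates thus went opposite ways, and each interval included the background.

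The sites of Gdpd4, Tmem9b, Vps35, Glo1, Fbxo45 and Rrm2 shown above by sequence are among the 10 shared sites closest to a protein-coding gene. The others of the 10 lay near Phf21a, which encodes a subunit of a histone demethylase complex, at 55 of 62 and 54 of 61 reads (6 bp), and near Sprtn, the gene of a protease for DNA-protein crosslinks, at 18 of 39 and 18 of 40 (21 bp). The site 24 bp before Dgcr8, whose product works with Drosha on primary microRNAs, had 17 of 30 reads in both replicates. Dgat2, a triglyceride synthesis gene, had 15 of 48 and 11 of 44 (27 bp). High and low levels were thus found among the closest sites, from 22.0% to 100% in replicate 1.

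At the far end were sites in gene deserts. Among shared sites, the greatest distance from any protein-coding gene was found on chromosome 1 at position 102010027, 1519428 bp from Cntnap5b, a gene of the neurexin superfamily, with 24 of 35 and 25 of 36 reads. On chromosome 12, sites lay 1181200 bp from Fscb (position 63290133; 15 of 36 in both) and 1035934 bp from Flrt2, which encodes an axon guidance protein (position 94656072; 13 of 35 and 13 of 36). The site 961296 bp from Arrdc3 on chromosome 13 (position 79922088) kept the C in all 30 reads of both replicates. Next in distance were sites near Brinp3 (10 of 34), Tns3 (30 of 37), Tbl1xr1 (10 of 36), Sptlc3 (16 of 34), Id2 (11 of 32) and Zmiz1 (26 of 32), each with the same counts in both replicates. Levels in deserts thus also ran from under 30% to 100%.

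Median levels were higher close to genes than far from them in both replicates. The median level within 2000 bp was 52.2% in replicate 1 and 54.8% in replicate 2. Beyond 100000 and up to 500000 bp it was 43.3% and 45.2%, and beyond 500000 bp 45.0% and 40%. Single sites in each range varied widely, the medians did not fall in every step, and the difference between ranges was not tested. Listing in the other replicate ran from 45.8% (37.9 to 54.0) and 44.3% (36.6 to 52.3) within 2000 bp to 26.7% (14.2 to 44.4) and 25% (13.3 to 42.1) beyond 500000 bp, with 30 and 32 sites in the last range and overlapping intervals. Non-CG sites stood at 38.5% and 36.8% near genes and at 39.4% and 36.3% beyond 500000 bp.

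**Figure D4:**
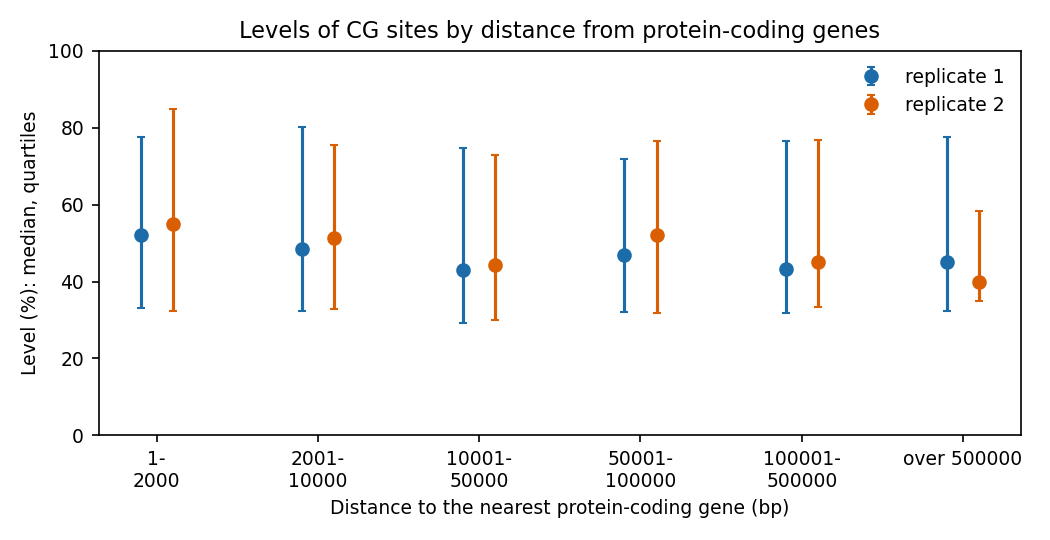
Level of CG sites outside protein-coding genes (vertical axis, % of reads that kept the C; points are medians, bars span the quartiles) by distance to the nearest protein-coding gene (horizontal axis, bp) in each replicate. Medians lie between 40% and 54.8%, with the highest of each replicate in the nearest range.

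LncRNA genes held 134 sites in replicate 1 (17%, 14.5 to 19.8) and 132 in replicate 2 (16%, 13.7 to 18.7). Of the bases between protein-coding genes, 10.6% lie in a lncRNA gene, and of non-CG sites outside genes 14.6% (14 to 15.3) and 14.9% (14.3 to 15.5) did. The intervals of CG and non-CG sites overlapped in both replicates. The median level was 46.9% and 50.0% in lncRNA genes, against 45.9% and 47.2% outside them. Of the 316 shared sites, 53 lay in lncRNA genes. Only Gm31508, on chromosome 12, held more than 1 of them, at position 28999324 (26 of 50 reads in both replicates) and position 29030184 (12 of 36 in both).

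The shared lncRNA sites with the highest levels had nearest protein-coding genes of varied kinds. The highest level was found where D630013N20Rik and Gm51772 overlap on chromosome 10 (position 70640101), 40810 bp upstream of Phyhipl. There the C was kept in 42 of 42 reads in both replicates (lower bound 91.6%). Gm12506, on chromosome 4 from 55532710 to 55639189, begins next to Klf4, a reprogramming factor gene. It held a site at position 55535619, 3144 bp upstream of Klf4, that kept the C in 26 of 30 reads in both replicates (86.7%, 70.3 to 94.7). In replicate 2 alone, another Gm12506 site at position 55580408 had 31 of 33 reads. Sfta3-ps, annotated as a lncRNA, held a site 6373 bp from Nkx2-1, a lung and thyroid transcription factor gene, at 30 of 37 reads in both. Banf2os had 30 of 31 reads in both, 28965 bp from Banf2. Gm34455, 26351 bp from the phosphatase gene Dusp1, had 38 of 40 in both. Gm30256, 25605 bp from Lbh, had 29 of 32 in both. Where Gm13404 and Gm39793 overlap, 58155 bp from Mvb12b, it was 30 of 33 in both. Gm30108, 456 bp from the calcium-dependent kinase gene Camk2g, had 30 of 35 in both. Gm10440, 231689 bp from the calcium sensor gene Stim2, had 25 of 30 in both. At 2 overlapping lncRNA genes, Gm30162 and Gm41474, 72259 bp from Hspa13, the counts were 30 of 33 and 41 of 46. The levels were thus alike at unequal depth.

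Known lncRNA genes were looked up from a list of 44, of which 41 were in the gene table. Sites were listed in 3 of them in replicate 1 and in 3 in replicate 2. Of all 12727 lncRNA genes, 1.12% and 1.07% held a site. That background also counts any lncRNA genes inside protein-coding genes, where no such site can lie. Gene length was not matched and no test was run, so no excess in known lncRNA genes can be read from these shares. Fendrr, a lncRNA next to the mesoderm regulator Foxf1, held the shared one, at chromosome 8 position 121077766 with 16 of 32 and 16 of 31 reads. In replicate 2 it held a second at position 121071458 with 14 of 35 reads. Rian, of the imprinted Dlk1-Dio3 domain, had 27 of 43 reads at chromosome 12 position 109617221 in replicate 1 alone. Tug1 had 28 of 40 reads at chromosome 11 position 3648808 in replicate 2 alone. Sox2ot, the lncRNA that overlaps the pluripotency gene Sox2, had a site in each replicate at neighbouring positions, described below.

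By nearest gene, 26 pluripotency genes had 3 sites in replicate 1 (Klf4, Sox2 and Tbx3) and 6 in replicate 2 (Klf4, Sox2 and Tfcp2l1), with median levels of 39.0% and 53.9%. Over all protein-coding genes, 3.30% and 3.48% were the nearest gene of a site. Among 39 lineage regulator genes 13 and 8 were, with 15 and 12 sites, at median levels of 33.3% and 30.0% against 46.2% and 48.4% over all sites outside genes. The space between genes that belongs to these regulators was wide, with a median of 136 kb a gene against 18.8 kb over all protein-coding genes. Per Mb of that space there were 1.33 and 1.06 sites near lineage regulators, 0.744 and 1.49 near pluripotency genes, and 0.475 and 0.496 over all. The lists were chosen with earlier results of these data known, and CpG number was not matched. Shared sites of the lineage list lay near Nkx2-1 (above), near Sox9, a cartilage and gonad regulator, 151783 bp away (16 of 32 in both) and 44497 bp away (7 of 30 in both), and near the heart and limb regulator Tbx5, 48733 bp away (18 of 37 in both). Among 25 genes of cytosine methylation and its removal, none was nearest to a site in replicate 1. In replicate 2, Gadd45g was, with 34 of 34 reads at 78623 bp.

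Few protein-coding genes were the nearest gene of more than 1 shared site: 8 of 306. Ly6c2, of a family of small surface antigens, had 4, all on the plus strand of chromosome 15 from position 75086664 to 75086767, 21394 to 21497 bp from the gene. Their counts were low in both replicates: 9 of 31 and 10 of 54, 11 of 42 and 10 of 42, 9 of 44 and 9 of 47, and 12 of 43 and 11 of 63. The other 7 genes, with 2 each, were Ajap1, Eipr1, Foxc1, Sox9, Tbc1d1, Tbl1xr1 and Zmiz1. At Tbc1d1 the sites differed, with 14 of 32 and 15 of 33 reads at the nearer and 35 of 38 in both at the farther, 193620 bp away.

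At the 316 shared sites the levels of the replicates were nearly the same. The counts were identical at 225 (71.2%, 66.0 to 75.9), and at 312 the levels lay within 5 points. Identical counts were as frequent at other shared sites. They were found at 423 of 589 CG sites inside genes (71.8%, 68.1 to 75.3) and at 3535 of 4819 non-CG sites outside genes (73.4%, 72.1 to 74.6). The largest difference was 10.5 points, at the Ly6c2 site at 75086664. Site by site, a two-sided Fisher's exact test (adjusted by Benjamini-Hochberg over all 11542 shared sites of any context) called 0 of the 316, and 0 had an unadjusted p under 0.05, against 0.0260% called over all shared sites. The test covered only sites that passed the authors' call in both libraries, and identical counts can give no difference, so the 0 calls do not show that independent measurements agreed. No SD between replicates is given as an error.

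**Figure D5:**
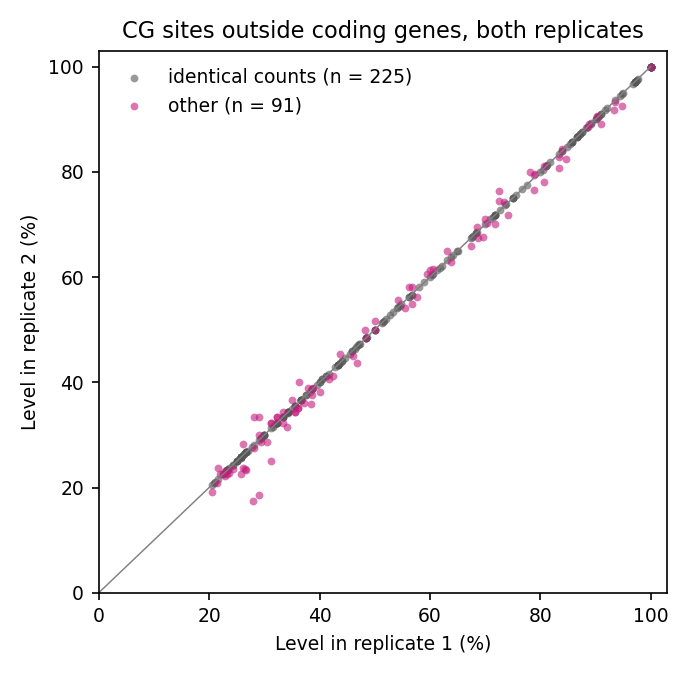
Level in replicate 1 (horizontal axis, %) against level in replicate 2 (vertical axis, %) at the 316 CG sites outside protein-coding genes listed in both, with identical counts in grey (225 sites) and other counts in magenta. Points lie on or near the diagonal, within 10.5 points of it at most.

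A further 26 CpGs outside genes were listed on opposite strands, one strand in each replicate, which were chosen for description after the data were seen. At 19 of the 26 the counts of both kinds of read were within 1 read of each other, and at 7 they were identical. The levels differed by a median of 1.82 points and by at most 4.68. At Sox2ot on chromosome 3, 1070 bp upstream of Sox2, replicate 1 listed the plus-strand C at 34648925 with 13 of 38 reads and replicate 2 the minus-strand C at 34648926 with 13 of 41. Near the neural regulator Sox1 (chromosome 8) the plus strand had 7 of 30 reads at 12339652 in replicate 1 and the minus strand 7 of 30 at 12339653 in replicate 2. Near the homeobox gene Meis2 (chromosome 2) the minus strand had 11 of 31 reads at 116274434 and the plus strand 11 of 31 at 116274433. Near Axin2, a Wnt pathway inhibitor gene, it was 22 of 31 on both. In replicate 1 the sites lay 55867 bp from Sox1, 206897 bp from Meis2 and 134581 bp from Axin2. Within a library, by contrast, both strands of a CpG were listed at 2 CpGs in replicate 1 (4 sites) and at 1 in replicate 2 (2 sites). These lay near Lcn12 (16 of 33 and 13 of 35 reads), Tyw3 (28 of 30 and 27 of 30) and Prdm1 (8 of 34 and 8 of 35). The plus strand of the Tyw3 CpG, 119537 bp from that gene, was also listed in replicate 2, with 55 of 60 reads. The minus strand of the Prdm1 CpG, 21960 bp from that gene, was also listed in replicate 1, with 8 of 34 reads. Whether the opposite cytosine was covered where it is not listed is not known.

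Sites listed in a single replicate often had a near-equal counterpart at another base. Of 472 sites that replicate 1 alone listed, 121 (25.6%, 21.9 to 29.8) had a site within 120 bp in replicate 2 alone with both counts within 1 read, opposite-strand CpGs included. In the other direction it was 113 of 507 (22.3%, 18.9 to 26.1). Most of these counterparts were not CG: of the 121, 29 were CG, 32 CHG and 60 CHH, where H is any base but G, and of the 113, 31 were CG, 25 CHG and 57 CHH. The counterpart lay on the other strand at 67 and 68 of them. For non-CG sites outside genes the shares with a counterpart were 19.2% (18.3 to 20.1) and 18.2% (17.3 to 19). On chromosome 15, with Myc as the nearest protein-coding gene, replicate 1 listed a CG site at 61913499 with 10 of 31 reads. Replicate 2 listed the neighbouring CHG position 61913498 with 10 of 31. At Slc35g2 both were CG, 80 bp apart on opposite strands, with 11 of 32 and 10 of 31 reads. On chromosome 5, replicate 1 listed a CG site at 119752839, 43675 bp from Tbx5. Replicate 2 listed a CG site at 119752833 on the same strand, both with 8 of 35 reads. These examples were chosen after their values were seen.

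Autosomes held a median of 0.516 sites per Mb between protein-coding genes in replicate 1 and 0.566 in replicate 2. On the X chromosome the density was 0.168 and 0.144 per Mb, or 0.326 and 0.254 of the autosome median, and non-CG sites stood at 0.280 and 0.281 of theirs. The Y chromosome held 4 sites in each replicate (0.0452 per Mb). Of these, 3 were listed in both. They lay 20430 bp from H2al2b (28 of 31 reads in both), 281458 bp from Gm20830 (23 of 38 and 24 of 39) and 16315 bp from Gm52481 (10 of 32 and 10 of 31). The sex of the cells is not among the labels. After the CG, the next base was G at 31.2% and 33.9% of the sites outside genes and A at 23.2% (20.4 to 26.3) and 20.3% (17.7 to 23.2). A followed at 17.9% (16 to 20.1) and 17.9% (15.9 to 19.9) of CG sites inside genes.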

How the data were processed

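Per the file headers, the authors deposited for each listed cytosine raw read counts: C retained, C converted, and their sum. The authors also deposited a p-value per cytosine with Holm and Benjamini-Hochberg adjustment. Bismark 0.23.1, Bowtie2 2.4.5, SAMtools, FastQC 0.11.9, cutadapt 4.1 and the build mm10 are named, without roles, per the submitters' processing notes. Whether duplicate reads were removed is not stated there. The lowest depth was 30 and the highest adjusted p-value 0.0481 and 0.0497, so uncalled cytosines were not analysed here.

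The level was computed as kept reads over depth, with 95% Wilson intervals, which cover counting error only since PCR reads without molecular identifiers are not independent. Sites were matched by chromosome, position and strand. Genes came from a RefSeq table of GRCm38.p6, with 21900 protein-coding and 12731 lncRNA genes. A site said to be near a named gene has it as nearest protein-coding gene, at any distance. Gene strand was known for 17492 of the former, from the promoter table. The listed trinucleotide matched the promoter sequence at 243 of 243 and 224 of 224 comparisons outside genes. Bases between genes were counted from the first to the last protein-coding gene of each chromosome.

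Left out were chromosome 2 from 98660000 to 98669999, 9 from 3000000 to 3039999, 14 from 19410000 to 19419999 and 17 from 39840000 to 39849999. Fisher's exact test compares 2 libraries, not conditions. It was tried on simulated data with counts drawn independently for each library. Whether that setting holds for these libraries, where most shared sites had identical counts, was not tested. Named shared sites are the 10 with the highest lower level, the 10 farthest from and the 10 closest to a protein-coding gene, the 10 highest in lncRNA genes, the 5 deepest, the 5 with the lowest Fisher p, CpGs called on both strands, genes with several shared sites, and up to 4 genes per list, of which examples are given. The members and lists were chosen with earlier results of these data known. Alternatives were other depth, p, level, flank and window limits and each replicate alone. Python 3.11.15, numpy 2.4.6, pandas 2.3.3, scipy 1.17.1 and matplotlib 3.10.9 were used.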

Additional observations from a re-analysis of the deposited data

How the results depend on the processing

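Of the alternatives, 38 left a value within the SD of the replicates or a count within 1.5 times, and 19 moved it. That SD is a yardstick only, and leaving out a replicate cannot exceed it. Requiring 50 reads left 31 sites on average over the replicates and 6 shared ones, fewer by construction, with a median level of 41.8%, 24.0% in lncRNA genes, a median distance of 21507 bp, a level outside minus inside genes of -8.60 points, and 25.8% of CG sites outside genes. With an adjusted p below 0.01 the median level was 51.7% and 36.4% lay outside genes. Below 0.001 these were 57.6% and 36.5%. A stricter p removes low levels by construction. Counting sites within 2000 bp as inside gave 17.2% in lncRNA genes, a distance of 44633 bp and 30.3% outside genes. With the 4 stretches kept in, the median level was 40.3%, the lncRNA share 13.6%, the distance 48335 bp, the difference -8.29 points and 41.8% lay outside genes. Leaving out each replicate gave medians of 46.2% to 48.4% and differences of -2.56 to -0.0978 points. The number of shared sites cannot be given without a replicate. Matched by CpG on either strand, a choice made after seeing the data, 342 were shared in place of 316. Fisher's exact test called 0 shared sites also at a depth of 50 in both replicates and at an adjusted p below 0.01. No paired analysis was possible because the series has 1 group. At a median of 34 reads, differences of a few points between single sites cannot be seen.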

Other observations

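Outside protein-coding genes, sites also fell in annotated genes that are neither coding nor lncRNA, 26 in replicate 1 and 24 in replicate 2. Of these overlaps, 19 and 13 were with pseudogenes and 3 and 5 with transcribed pseudogenes. Their positions are uncertain where a read could also match the parent gene.

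At 9 of the 316 shared sites the depth differed by at least 1.4 times between replicates, and at 2 of these both counts were exactly doubled. On chromosome 2 (position 152048822, 32707 bp from Scrt2) replicate 1 had 52 of 74 reads and replicate 2 had 26 of 37. On chromosome 5 (position 6086724, 336534 bp from Gm46900) the counts were 28 of 72 and 14 of 36. These sites were chosen after their values were seen, and no test was run on them. The deepest site of all, with 115 reads in replicate 1 alone, lay on chromosome 12 at position 3110099, 137329 bp from Rab10, at a level of 18.3%.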
